A study of Mus musculus with 4 samples.

Results

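The genes described here are the 4 genes of calcium/calmodulin-dependent protein kinase II (CaMKII), Camk2a, Camk2b, Camk2d and Camk2g, the 2 genes of its small inhibitor proteins, Camk2n1 and Camk2n2, and the 2 genes of phospholipase C eta, Plch1 and Plch2. They were taken by symbol from a table of 12861 genes, and all 8 were present. The members were chosen by gene family, with the Zac1 against CAT log2 fold changes of this same table known, so every difference between those groups in these 8 genes is a description and carries no test. The libraries came from Neuro-2A, a mouse neuroblastoma line, strain Swiss Albino. Cells were transfected by lipofection with the plasmid pRK5-Zac1, or with pRK5-CAT, which carries bacterial chloramphenicol acetyltransferase, as the negative control. RNA was collected 16 h later. Each group had 2 libraries, from 2 transfections per the submitters' design text. The labels number them 9 and 12 without saying whether the transfections were done in parallel. Transcripts were counted by digital gene expression, in which 1 short tag beside a DpnII site stands for each polyadenylated RNA, so levels of different genes were compared without a correction for length.

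CaMKII is a kinase of many subunits that is switched on when calcium-loaded calmodulin binds it, and it can then phosphorylate itself and stay active after calcium has fallen. The alpha and beta subunits are the main forms of brain and are known for their part in synaptic plasticity, while the delta and gamma subunits are made in most tissues. Phospholipase C enzymes cut the membrane lipid PIP2 into inositol trisphosphate, which releases calcium from the endoplasmic reticulum, and diacylglycerol, which activates protein kinase C. The eta enzymes are enriched in neurons and are themselves activated by calcium.

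The transfected gene, Plagl1, which encodes the zinc-finger factor Zac1, had 0 tags in both CAT libraries and normalised counts of 3397 and 1475 in Zac1 replicates 9 and 12. Recovered tag totals were 11578920 to 13840674 per library. All 14 markers of neuroblastoma and sympathetic neurons were in the table, with summed levels of 51522 and 55406 in the CAT libraries and of 46885 and 50983 in the Zac1 libraries. Summed levels of fibroblast, macrophage and endothelial markers stayed between 7.45 and 35.6, and those of glial markers between 243 and 389, nearly all of it Mbp. The forebrain neuron markers Slc17a7, Neurod6 and Emx1 were not in the table. Of 4 skeletal muscle markers only Myog was listed, at 1.11 and 0.931 in the CAT libraries and 18.5 and 10.9 in the Zac1 libraries, and its part in the results on the members was not tested. Recovered counts of Zac1 replicate 9 differed most from those of all other libraries. The chi-square statistic divided by its degrees of freedom was 33.1 to 39.9 for pairs that included it and 12.8 to 13.6 for all other pairs. Its values also leaned towards GC-rich transcripts, by 0.22 on the log2 scale per 10 percentage points of GC, against 0.02 in Zac1 replicate 12 and -0.14 and -0.10 in CAT replicates 9 and 12. Values with and without Zac1 replicate 9 are therefore given for each member. In bulk RNA the share of cells that took up the plasmid and the RNA of each such cell cannot be told apart.

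The tags by which the members were counted can be read from annotated transcripts, since the last DpnII site before the poly(A) tail is the one captured. In the GENCODE M21 annotation of GRCm38, the 8 genes had 48 coding transcripts with a complete end. Of these, 47 held a usable site, which gave 24 different predicted tags of 20 bases. None of the 24 was the last-site tag of any other annotated gene, so no predicted tag was shared between the CaMKII subunit genes. How the authors assigned tags to genes is not given in the sources used here. The tags of Camk2b and Plch2 are shown because the results turn on these genes, with the DpnII site in capitals. Camk2b lies on the minus strand of chromosome 11, at chr11:5969644-6066362. Its first tag serves 7 of 10 transcripts and lies in the coding sequence, and its second serves the other 3 and lies in the 3′ untranslated region. Plch2 lies on the minus strand of chromosome 4, at chr4:154983115-155056784. Its first tag serves 5 of 8 transcripts, and the other 3 tags serve 1 transcript each. The deposited values are given per gene, so transcript forms were not told apart.
Camk2b, tag 1: GATCcacaccaccatcctga
Camk2b, tag 2: GATCctaaactccaagggga
Plch2, tag 1: GATCttgggaagcaagaaac
Plch2, tag 2: GATCccagctcttagccctg
Plch2, tag 3: GATCctggtgaaggggaaga
Plch2, tag 4: GATCtccagcgggccacgtg

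In control cells the delta and gamma subunit genes and the inhibitor gene Camk2n2 were the abundant members, and Camk2b was the scarcest. The mean normalised count in the CAT libraries was 1530.2 ± 37.6 (SD, n = 2) for Camk2d, 1409 ± 156 for Camk2n2 and 1304 ± 95.3 for Camk2g. The ranges of Camk2d and Camk2n2 overlapped between libraries, and so did those of Camk2n2 and Camk2g. Camk2n1 followed at 372 ± 18.6, Plch1 at 168 ± 93.8, Camk2a at 87.8 ± 3.26, Plch2 at 59.0 ± 1.24 and Camk2b at 23.4 ± 10.8, with no overlap between neighbours from Camk2g downwards. Against all listed genes, Camk2d stood at the 87.5th percentile of level in CAT cells, Plch2 at the 28.5th and Camk2b at the 19.6th.

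In the Zac1 libraries the order of the lower members was different. Camk2d, Camk2g, Camk2n2 and Camk2n1 kept the first places, and the ranges of neighbours among them overlapped. Plch2 and Camk2b came next, then Plch1 and Camk2a, where the CAT order had been Plch1, Camk2a, Plch2 and Camk2b. The ranges of Camk2b and Plch1 overlapped, as did those of Plch1 and Camk2a. The percentile of level was 54.1 for Plch2 and 44.1 for Camk2b.

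**Figure D1:**
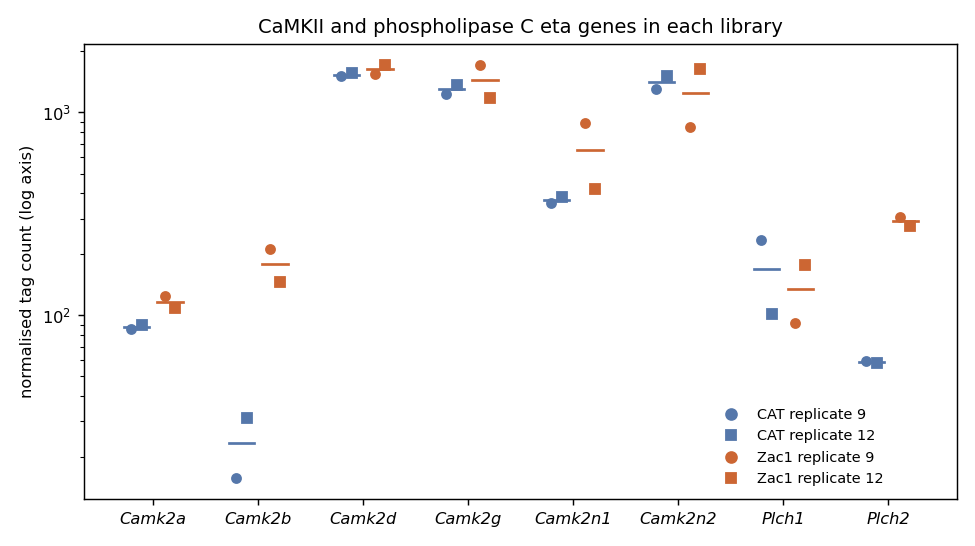
Normalised tag count of each of the 8 genes on a log axis, with 1 point per library (blue CAT, orange Zac1, circle replicate 9, square replicate 12) and a bar at the mean of each group. Camk2b and Plch2 are the genes whose Zac1 points lie far above their CAT points, and Plch1 has points of both groups interleaved.

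Camk2b, whose beta subunit anchors the kinase to the actin cytoskeleton, showed the largest difference of the 8 genes. Its normalised counts were 15.8 and 31.1 in CAT replicates 9 and 12, and 213 and 145 in Zac1 replicates 9 and 12. Both Zac1 libraries lay far above both CAT libraries, and the CAT libraries themselves differed. The group means were 23.4 ± 10.8 and 179 ± 47.7 (SD, n = 2), a ratio of 7.64, and the fitted log2 fold change was 2.93 ± 0.38 (SE) on the log2(value + 1) scale. The low CAT level rested on 14 and 33 recovered tags. CAT replicate 12 was 1.99 times CAT replicate 9, with an exact 95% counting interval of 1.04 to 4.03. The log2 fold change was 2.46 without CAT replicate 9 and 3.40 without CAT replicate 12. With 1 Zac1 library left out, it was 2.66 (replicate 9 out) or 3.20 (replicate 12 out).

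Camk2a, the alpha subunit gene, stayed low in all libraries. Its normalised counts were 85.5 and 90.1 in the CAT libraries and 124 and 109 in the Zac1 libraries, in the order 9 and 12. The Zac1 libraries were both higher, by a small margin, with a log2 fold change of 0.40 ± 0.29 (SE), which was 0.31 without Zac1 replicate 9 and ranged from 0.31 to 0.50 over the alternatives. In both CAT libraries Camk2a exceeded Camk2b, with 0.184 and 0.345 Camk2b tags for each Camk2a tag, while both Zac1 libraries had more Camk2b, at 1.71 and 1.34.

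The broadly expressed subunit genes showed little difference between the groups. Camk2d was at 1504 and 1557 in the CAT libraries and at 1548 and 1719.5 in the Zac1 libraries. The groups overlapped, and the log2 fold change was 0.09 ± 0.21 (SE), or 0.17 without Zac1 replicate 9. Camk2g was at 1236 and 1371 in the CAT libraries, and at 1718 and 1185 in the Zac1 libraries. Its highest and its lowest value were thus both in the Zac1 group, and the fitted value of 0.13 ± 0.23 became -0.14 without Zac1 replicate 9 and 0.40 without Zac1 replicate 12.

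Expressed as shares of all CaMKII subunit tags of a library, the delta and gamma subunits made up nearly the whole in every library. Camk2b made up 0.547% (95% Wilson interval 0.326 to 0.916) of 2560 tags in CAT replicate 9 and 1.02% (0.724 to 1.42) of 3249 tags in CAT replicate 12. It made up 5.90% (5.19 to 6.71) of 3710 tags in Zac1 replicate 9 and 4.60% (3.93 to 5.39) of 3194 tags in Zac1 replicate 12. The intervals of the Camk2b share, which cover counting error only, did not overlap between the groups. The share of Camk2a was between 2.95% and 3.45% in all 4 libraries. Camk2d held 52.9% and 51.1% in the CAT libraries, and 43.0% and 54.4% in the Zac1 libraries. Camk2g held 43.5% and 45.0% in the CAT libraries, and 47.7% and 37.5% in the Zac1 libraries. For delta and gamma the Zac1 libraries lay on either side of the CAT libraries. The summed level of the 4 subunit genes was 2841 and 3049 in the CAT libraries, and 3604 and 3158 in the Zac1 libraries. Both Zac1 sums lay above both CAT sums, and Camk2b made up at most 5.90% of the subunit tags of any library.

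**Figure D2:**
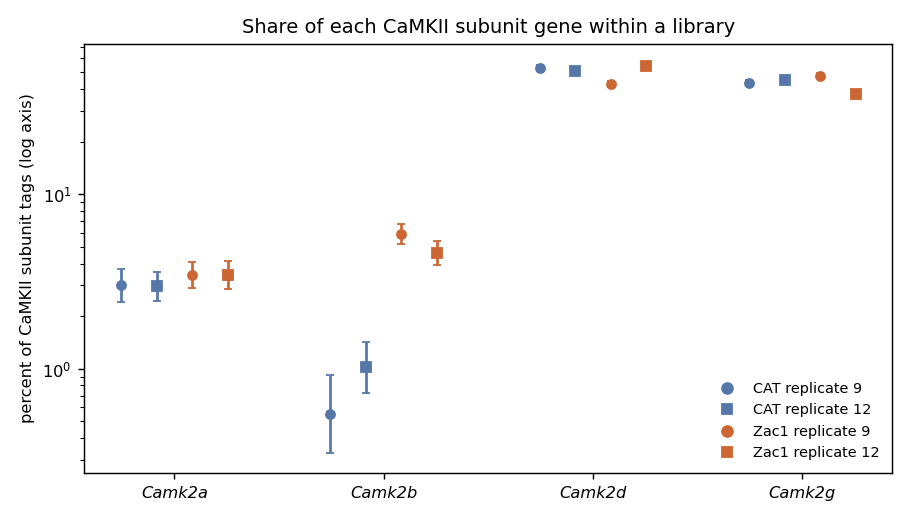
Share of each subunit gene among the CaMKII subunit tags of a library, in percent on a log axis, with 95% Wilson intervals as bars (blue CAT, orange Zac1, circle replicate 9, square replicate 12). The Camk2b share is 0.547% and 1.02% in the CAT libraries and 5.90% and 4.60% in the Zac1 libraries, while the other subunits stay near their CAT shares or scatter around them.

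The inhibitor genes encode small proteins that bind the active kinase and block it. Camk2n1 was at 358 and 385 in the CAT libraries and at 892 and 421 in the Zac1 libraries. Zac1 replicate 12 was close to the CAT libraries, and only Zac1 replicate 9 was well above them. In the Zac1 group replicate 9 was 2.12 times replicate 12, with an exact 95% counting interval of 1.88 to 2.38. The log2 fold change of 0.72 ± 0.29 (SE) fell to 0.18 without Zac1 replicate 9, and was 1.26 without Zac1 replicate 12.

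Camk2n2 went the other way in the same library. It was at 1298 and 1519 in the CAT libraries, and at 844 and 1636 in the Zac1 libraries. Zac1 replicate 9 held its lowest value and Zac1 replicate 12 its highest, and the groups overlapped. Its log2 fold change was -0.26 ± 0.27 (SE) with all libraries, 0.22 without Zac1 replicate 9 and -0.73 without Zac1 replicate 12. Camk2n1 therefore made up 51.4% of the tags of both inhibitors in Zac1 replicate 9, against 20.2% to 21.6% in the other 3 libraries. The inhibitor sum per kinase tag was 0.583 and 0.624 in the CAT libraries and 0.482 and 0.651 in the Zac1 libraries, so the groups overlapped in that ratio too. The GC content of the longest annotated transcript was 53.7% for Camk2n1 and 63.9% for Camk2n2. Zac1 replicate 9, where Camk2n1 was high and Camk2n2 low, was the library that leaned towards GC-rich transcripts. When a trend on GC content was removed from every library, the log2 fold changes were 0.70 for Camk2n1 and -0.52 for Camk2n2. The part of GC content in either value was not tested.

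Plch2, which encodes phospholipase C eta 2, was the member with the most even replicates, closely followed by Camk2d. Their pooled replicate SDs were 0.073 and 0.080 on the log2 scale. Its normalised counts were 59.9 and 58.2 in the CAT libraries and 305 and 277 in the Zac1 libraries, from 54, 62, 314 and 280 recovered tags. The groups were far apart and the libraries of each group nearly alike. The means were 59.0 ± 1.24 and 291 ± 19.9 (SD, n = 2), a ratio of 4.93, with a log2 fold change of 2.28 ± 0.27 (SE). The libraries of a group differed by no more than counting error, with ratios of 1.03 (exact 95% interval 0.702 to 1.51) for CAT and 1.10 (0.935 to 1.30) for Zac1. Leaving out any 1 library gave values from 2.21, without Zac1 replicate 9, to 2.35, without Zac1 replicate 12.

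Plch1, which encodes phospholipase C eta 1, had no such pattern. Its values were 235 and 102 in the CAT libraries, and 91.2 and 178 in the Zac1 libraries. Each group held 1 high and 1 low library, with replicate 9 the high one among the CAT libraries and replicate 12 among the Zac1 libraries. The larger value of a group was 2.30 times the smaller for CAT (exact 95% counting interval 1.82 to 2.92) and 1.95 times for Zac1 (1.51 to 2.53), both beyond counting error. The fitted log2 fold change of -0.28 ± 0.38 (SE) ran from -0.88 without CAT replicate 12 to 0.32 without CAT replicate 9, and leaving out Zac1 replicate 9 gave 0.20, or Zac1 replicate 12 -0.76. Between the eta genes, the CAT libraries held 0.255 and 0.570 Plch2 tags for each Plch1 tag, and the Zac1 libraries 3.34 and 1.56. The more abundant eta gene was Plch1 in both CAT libraries and Plch2 in both Zac1 libraries. The summed level of the 2 genes was 295 and 160.2 in the CAT libraries and 396 and 455 in the Zac1 libraries.

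**Figure D3:**
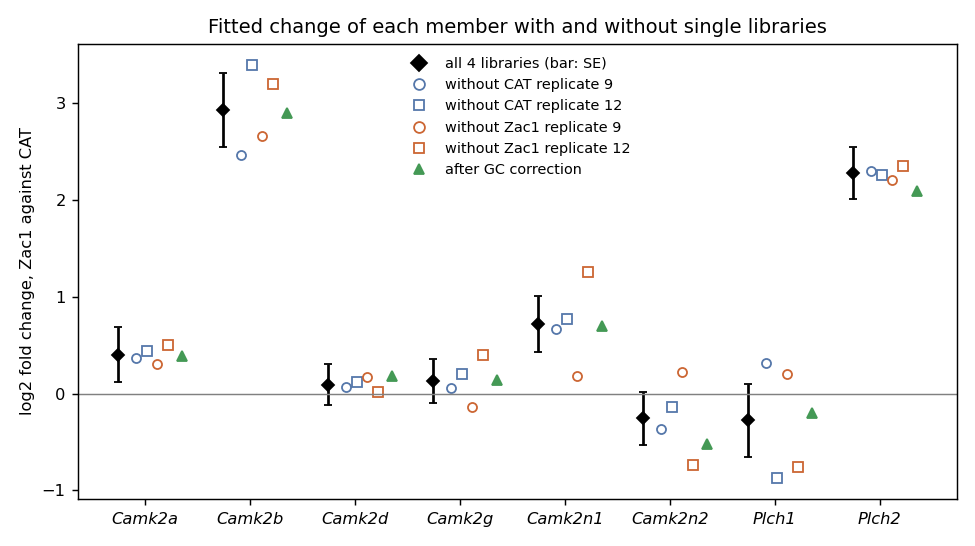
Fitted log2 fold change, Zac1 against CAT, of each gene with all 4 libraries (black diamond, bar SE), with 1 library left out (open symbols) and after the GC correction (green triangle). Camk2b stays between 2.46 and 3.40 and Plch2 between 2.10 and 2.35, while Camk2g, Camk2n2 and Plch1 have values on both sides of 0.

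Across all 8 genes, the fit over the whole table called 2 higher, Camk2b and Plch2, and 0 lower (limma, Benjamini-Hochberg adjusted p under 0.05). Over all 11433 genes tested it called 0.962% higher and 0% lower. Because this contrast was known when the genes were listed, nothing is read from that count. Without adjustment, 3 members were higher and 0 lower at p under 0.05 in limma, where 5.23% of all genes were higher and 0.962% lower. Run on the recovered counts, DESeq2 and the quasi-likelihood test of edgeR each called the same 2 members higher and 0 lower, where they called 1.25% and 1.31% of all genes higher and 0% lower. After the GC correction limma called 0.619% of genes higher, both members among them. Neither gene was called when either Zac1 library was left out, where the fit called 1 gene in all, or 0.00875%. In 4 of the 8 genes, Camk2a, Camk2b, Camk2n1 and Plch2, both Zac1 libraries lay above both CAT libraries, a pattern seen in 17.2% of all genes tested. None of the 8 had both Zac1 libraries below both CAT libraries, against 16.7% of all genes. The median log2 fold change was 0.27 for the 8 genes and -0.01 for all genes tested.

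GC content was set beside these values because genes called higher in the whole table had a median transcript GC of 58.5%, against 50.1% for all genes tested. It was 59.6% for Plch2 and 53.9% for Camk2b, 51.8% to 53.3% for Camk2g and Camk2a, 45.6% for Plch1 and 43.9% for Camk2d. After the GC correction, the log2 fold change was 2.90 for Camk2b and 2.10 for Plch2, against 2.93 and 2.28 without it. The Plch2 value moved by more than its pooled replicate SD of 0.073 on the log2 scale. The part of GC content in these values was not tested.

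The sequence upstream of the start sites is shown for the 2 genes that were higher in both Zac1 libraries by over 4-fold. The palindrome GGGGCCCC is known as a binding site of Zac1, and GGGCGG, the GC box, as a site of SP and KLF factors. RefSeq promoter windows of GRCm38.p6 were at hand for 5 members, in 7 windows. The 250 bases before each start were searched on both strands; the 2 motifs cannot share all their bases but can overlap at their ends. GGGGCCCC occurred in 0 of the 7 windows, and in 0.889% of all 32851 windows of that length. GGGCGG occurred in 32.7% of all windows. It occurred 3 times in the Camk2b window, which had a GC content of 78.4%, and once in each Plch2 window, with 57.6% and 58.8% GC. It also occurred 3 times for Camk2d and 6 times for Camk2n2, which had overlapping groups, and 0 times in both windows of Plch1. Of all windows with 70 to 80% GC, 88.4% held a GC box, and of those with 50 to 60% GC, 29.8% did. GGGGCCCC was in 2.96% of windows with 70 to 80% GC and in 0.718% of those with 50 to 60% GC. The annotated spans of Camk2b and Plch2 reach further upstream than these windows, to chr11:6066362 and chr4:155056784. Sequence before those outer ends was not searched. Capitals mark GC boxes on either strand.
Camk2b, chr11:6065749-6065998, minus strand: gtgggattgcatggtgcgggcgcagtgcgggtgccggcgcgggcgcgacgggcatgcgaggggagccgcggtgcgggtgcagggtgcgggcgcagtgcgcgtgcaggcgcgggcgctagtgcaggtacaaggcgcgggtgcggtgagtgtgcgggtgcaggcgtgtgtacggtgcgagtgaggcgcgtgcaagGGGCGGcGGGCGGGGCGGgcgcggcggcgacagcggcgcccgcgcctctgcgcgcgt
Plch2, chr4:155019429-155019678, minus strand: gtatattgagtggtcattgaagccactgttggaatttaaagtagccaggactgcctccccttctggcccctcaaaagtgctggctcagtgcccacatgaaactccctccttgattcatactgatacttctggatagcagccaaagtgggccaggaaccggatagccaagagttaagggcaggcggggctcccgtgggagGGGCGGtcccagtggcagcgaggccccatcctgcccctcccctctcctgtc
Plch2, chr4:155011026-155011275, minus strand: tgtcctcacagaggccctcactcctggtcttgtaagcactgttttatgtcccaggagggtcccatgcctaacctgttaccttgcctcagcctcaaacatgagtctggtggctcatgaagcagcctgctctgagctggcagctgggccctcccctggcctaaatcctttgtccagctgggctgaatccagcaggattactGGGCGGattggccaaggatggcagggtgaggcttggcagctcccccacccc

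The genes whose pattern over the 4 libraries was most like that of Camk2b were Kremen2, Hsf4, Hif3a, Btbd17 and Hes7, by Euclidean distance of centred log2(value + 1) values. Kremen2, a receptor for the WNT inhibitors of the Dickkopf family, was nearest at 0.19. It had normalised counts of 12.4 and 27.3 in the CAT libraries and 168 and 134 in the Zac1 libraries. Like Camk2b, it was higher in CAT replicate 12 than in CAT replicate 9 and higher in Zac1 replicate 9 than in Zac1 replicate 12. Hes7, a transcriptional repressor of the segmentation clock, was at a distance of 0.34. For Plch2 the nearest were Kcnn1, Sytl1, Alpk3, Dok2 and Zfp385c. Kcnn1, a small-conductance potassium channel that is opened by calcium-bound calmodulin, was nearest at 0.10, with 6.66 and 6.56 in the CAT libraries and 36.9 and 36.6 in the Zac1 libraries. Sytl1, a synaptotagmin-like protein of vesicle traffic, followed at 0.15. Camk2b and Plch2 were 0.99 apart from each other, since Camk2b had the larger difference and the less even replicates. Several of these neighbours had low CAT levels. In CAT replicates 9 and 12, Hif3a rested on 1 and 4 tags, Zfp385c on 2 and 3, and Kcnn1 on 6 and 7. Hif3a, Kcnn1, Dok2 and Zfp385c were not called in the main limma fit, and the other neighbours were. With 4 libraries, many genes that are higher in both Zac1 libraries have close patterns, and the distances are a description of these libraries only.

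**Figure D4:**
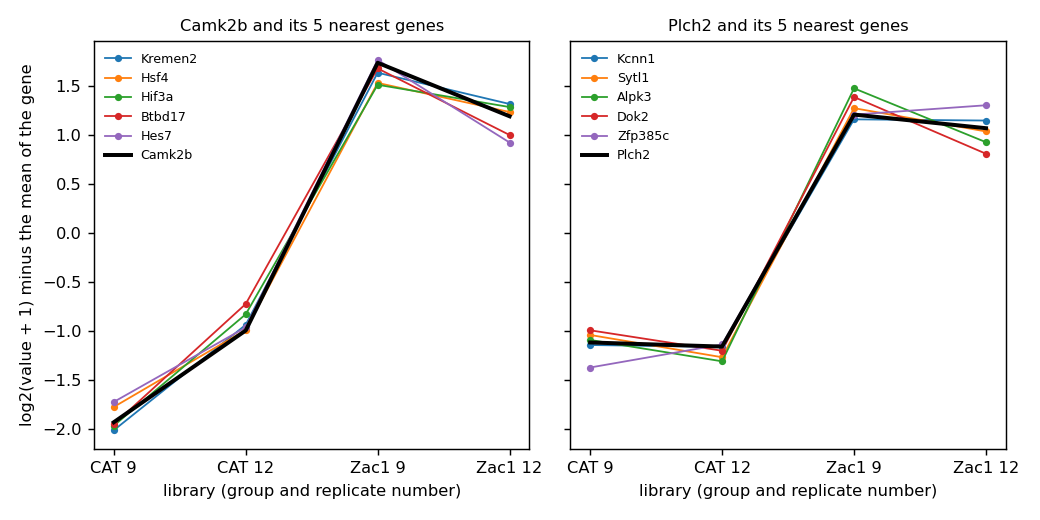
Centred log2(value + 1) values in the 4 libraries for Camk2b (left, black) and Plch2 (right, black) with the 5 genes nearest to each (coloured lines, joined across libraries to follow a gene). On the left, CAT replicate 12 lies above CAT replicate 9 for all 6 genes, and on the right the CAT libraries are nearly level.

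Other genes of calcium and phospholipase C signalling were then counted from 8 lists drawn from textbook knowledge. The lists were written with earlier results of these data known, so their counts and shares are not those of lists chosen blind. Of 194 symbols, 151 were in the table and 127 had a mean of at least 10 over the libraries and were tested. Only 1 rose, Itpka, or 0.787% of those tested against 0.962% of all genes, and 0 fell (limma, adjusted p under 0.05). Without adjustment, 11 were higher and 0 lower at p under 0.05 (limma), or 8.66% and 0%, against 5.23% and 0.962% of all genes, and edgeR's quasi-likelihood test and DESeq2 each called 1 higher and 0 lower. The median log2 fold change was 0.03, against -0.01 for all genes tested. Both Zac1 libraries lay above both CAT libraries in 30 of the 127 genes and below them in 16, or 23.6% and 12.6%, against 17.2% and 16.7% of all genes tested.

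Itpka encodes a calmodulin-regulated kinase that phosphorylates inositol trisphosphate, the second messenger made by phospholipase C. Its normalised counts were 15.3 and 2.70 in the CAT libraries and 118 and 115 in the Zac1 libraries. The Zac1 libraries were alike and far above both CAT libraries, which differed from each other. The log2 fold change was 3.92 ± 0.57 (SE, n = 2 per group; limma adjusted p = 0.00215). It was 4.99 without CAT replicate 9 and 2.85 without CAT replicate 12. The call was lost without Zac1 replicate 9 (limma adjusted p = 0.766), without Zac1 replicate 12 (0.136) and in limma without a trend (0.0672), within a range of 5.28e-15 to 0.766 over the alternatives. The log2 fold change in those fits was 3.90, 3.93 and 3.92, so the difference was as large and its SE (0.92, 0.92 and 0.64) larger. The rest of its list, 24 inositol phosphate and phosphoinositide genes, did not pass, and the list median was -0.02. Among those with a mean of at least 50, the largest differences were those of the receptor gene Itpr1 at -0.39, the lipid kinase gene Pi4ka at -0.38 and Pip4k2b at -0.36 on the log2 scale. The receptor gene Itpr3, below that level and picked out after its values were seen, had a log2 fold change of 2.18 that rested on Zac1 replicate 9. Its normalised counts were 4.35 and 0.896 in the CAT libraries and 34.1 and 4.91 in Zac1 replicates 9 and 12 (limma adjusted p = 0.788).

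None of 14 other calmodulin-dependent kinases, 9 calmodulin and calmodulin-binding genes, 13 phosphatase and calcineurin genes or 8 other phospholipase C genes passed, nor did any at an unadjusted p under 0.05 in limma, edgeR or DESeq2. Their median log2 fold changes were -0.01, -0.09, 0.03 and 0.14. Camk1d was at -0.47, with 288 and 207 in the CAT libraries and 179 and 174 in the Zac1 libraries. Dclk2, a doublecortin-like kinase, was at 0.28 and Camk4 at -0.26. Among the calmodulin-binding genes the values were 0.34 for Nrgn, 0.32 for Calml4 and -0.28 for Marcks. Ppm1e, a phosphatase that can dephosphorylate CaMKII, was at 0.47, with 92.0 and 78.8 in the CAT libraries and 102 and 137 in the Zac1 libraries. The phosphatase subunit genes Ppp1cb and Ppp1cc were at -0.41 and 0.17. Of the phospholipase C relatives, Plcb3 was at 0.41, Plcd3 at 0.38 and Plcl2 at 0.19, all far below the 2.28 of Plch2.

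Among 17 tested partners and substrates of CaMKII, 0 passed in limma, edgeR or DESeq2, with 1 (5.88%) higher and 0 lower at an unadjusted p under 0.05 in each, against 5.23%, 5.52% and 4.50% of all genes higher. The median was 0.04. Dlg4, which encodes the postsynaptic scaffold PSD-95, was at 0.54, the histone deacetylase gene Hdac5 at 0.38 and the glutamate receptor gene Gria2 at -0.32 on the log2 scale. Dlg4 had 442 and 606 in the CAT libraries and 855 and 662 in the Zac1 libraries.

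The diacylglycerol and protein kinase C list had 18 tested members, of which 0 passed in limma, edgeR or DESeq2 and 2 (11.1%) were higher at an unadjusted p under 0.05 in each, against 5.23%, 5.52% and 4.50% of all genes. The median was -0.01. Prkd2, a diacylglycerol-responsive kinase, had 108 and 108 in the CAT libraries and 267 and 195 in the Zac1 libraries (log2 fold change 1.07 ± 0.27 SE; limma adjusted p = 0.0778). Rasgrp2, a calcium- and diacylglycerol-regulated activator of Rap, had 33.1 and 20.5, then 92.3 and 57.3 (1.44 ± 0.41; limma adjusted p = 0.141). The lipid kinase gene Dgkd was at -0.55.

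The list of calcium stores, pumps and entry channels had the highest median, 0.28 over 23 tested genes, with 16 above 0 and 7 below. Both Zac1 libraries lay above both CAT libraries in 11 of them (47.8%, against 17.2% of all genes tested) and below in 2 (8.70%, against 16.7%). No member passed in limma, edgeR or DESeq2, and without adjustment 6 were higher at p under 0.05 in limma (26.1%, against 5.23% of all genes) and 5 in edgeR and DESeq2 (21.7%, against 5.52% and 4.50%), with 0 lower. Ryr1, a calcium release channel, had 55.6 and 65.7 in the CAT libraries and 146 and 142 in the Zac1 libraries (log2 fold change 1.24 ± 0.29 SE; limma adjusted p = 0.0619). Orai1, the pore of store-operated calcium entry, had 303 and 299, then 597 and 486 (0.84 ± 0.23; limma adjusted p = 0.123). Cacna1b, the pore subunit of N-type calcium channels, had 169 and 192, then 296 and 305 (0.73 ± 0.24; limma adjusted p = 0.290). Under equal-total scaling, where the median log2 fold change of all genes was 0.05 in place of -0.01, Ryr1 (limma adjusted p = 0.0344) and Prkd2 (0.0481) passed. Transcript GC content was 58.0% for Ryr1, 58.6% for Orai1 and 52.9% for Cacna1b, against a median of 50.1% for all genes tested. The part of GC content in the values of this list was not tested.

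**Figure D5:**
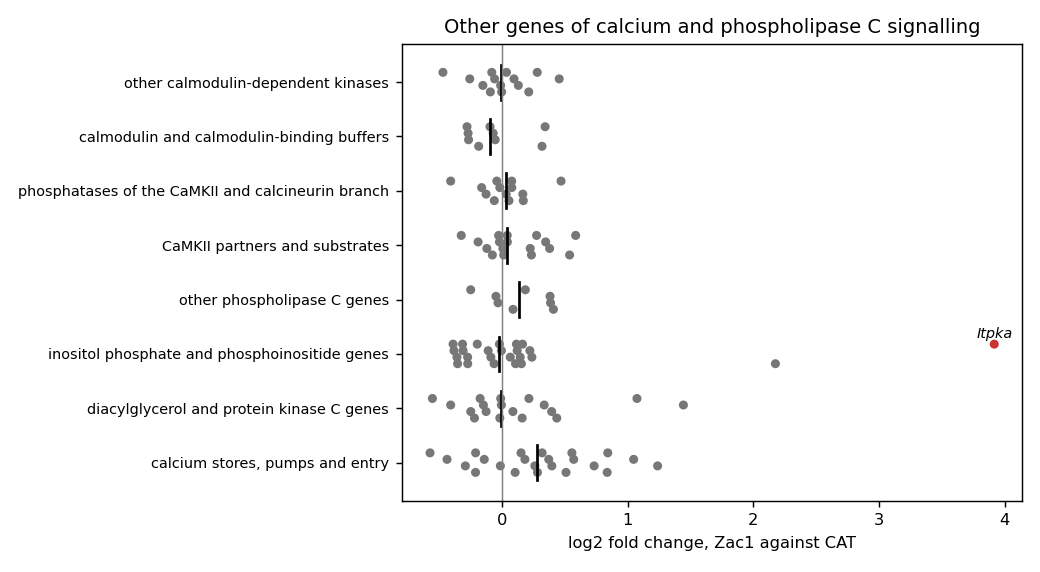
Log2 fold change, Zac1 against CAT, of the tested genes of each list (1 point per gene, black bar at the list median, red where the gene passed). Itpka, at 3.92, is the only gene that passed, and the calcium list has the rightmost median at 0.28.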

How the data were processed

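Tags were counted by the authors in 2 CAT and 2 Zac1 libraries, each made from 2 µg of total RNA with 15 PCR cycles, per the labels' protocols. The deposited values are a normalized signal: per the name of the deposited table, pseudocounts after TMM normalization, made with edgeR on mm9, per the submitters' processing notes. How tags were mapped and assigned is not given in the sources used here. Inverting edgeR's quantile adjustment (common dispersion 0.0364) returned 100% of the deposited values as whole counts, within 1e-06. The 5 lines without a gene ID, at most 0.00897% of counts, were left out. Genes with a mean of at least 10 (11433, with 1428 left out) were tested with limma 3.58.1 in R 4.3.3 on log2(value + 1), with a variance trend, two-sided, with Benjamini-Hochberg adjustment and a threshold of 0.05. With 2 libraries a group, p-values measure the spread between these 2 transfections, moderated with 14.1 prior degrees of freedom. How far apart the transfections of a group were in time or culture is not given. Alternatives changed the filter, pseudocount, trend, scaling and libraries kept, added the replicate number as a block or a GC correction (on 11156 genes with an annotated transcript), or used edgeR 4.0.16 and DESeq2 1.42.0 on recovered counts. The procedure was also run on simulated data, whose outcome is not given here. Intervals reflect counting error alone, as PCR can copy 1 molecule into many tags. The members and lists were chosen with earlier results of these data known. Named were all 8 members; of each list the genes called and, of the others with a mean of at least 50, the 3 with the largest change; and the 5 genes nearest in pattern to the 2 members with the largest change. Promoter sequences are from RefSeq (GRCm38.p6) and tags from GENCODE M21 (GRCm38), not the authors' build.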

Additional observations from a re-analysis of the deposited data

How the results depend on the processing

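Among the members, Camk2g, Camk2n2 and Plch1 changed sign when 1 library was left out, and Camk2n1 ranged from 0.18 to 1.26. Plch2 was at 2.21 with a pseudocount of 5 and at 2.10 after the GC correction, which put Camk2d at 0.18. Over the whole table, 110 genes were called higher with all libraries, 67 with a minimum mean of 50, 69 after the GC correction and 279 with the replicate block. Leaving out 1 library gave 1 to 154 higher calls and 0 to 5 lower calls, with 1 higher call without either Zac1 library and 5 lower calls without CAT replicate 9. Other pathway genes called higher numbered 1 with all libraries, 5 with the replicate block, 3 under equal-total scaling, 0 in limma without a trend, and 0 to 1 with 1 library left out. The replicate block added Orai1, Prkd2, Rasgrp2 and Ryr1. Libraries of the same number deviated together only weakly (correlation 0.20 over 11433 genes), and the labels do not tie the numbers to a shared day or culture, so the block is no pairing by design. Among named pathway genes that were not called in any fit, the log2 fold change changed sign for Camk4 (from -1.19 to 0.68 with 1 library left out, positive without CAT replicate 12 or Zac1 replicate 9), Plcl2 (-0.10 to 0.47, negative without CAT replicate 9 or Zac1 replicate 12) and Plcd3 (-0.013 to 0.78, negative without CAT replicate 12 or Zac1 replicate 9). It did so without Zac1 replicate 9 for Marcks (-0.68 to 0.13) and Ppp1cc (-0.033 to 0.37). The cause was not tested. A low level limits the size of the Camk2b and Itpka differences, whose CAT values rest on 3 to 33 tags.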
